A study of Rattus norvegicus with 6 samples.

Results

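miR-22 is a microRNA (miRNA), a short RNA that guides the silencing of messenger RNAs carrying matches to its seed, and its precursor hairpin gives a mature RNA from each arm, miR-22-3p and miR-22-5p. Both arms were described here, 2 of the 719 rat miRNAs on the array, read by 3 of its 1730 rat miRNA probes. They were taken by name from the probe annotation. The choice rested on earlier results of the same arrays, namely their levels with IL-8 and in control, their rank among detected miRNAs and the ratio of the arms, so these values are given as a description with no test.

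The cells were RSkMC, primary skeletal muscle cells from the limbs of newborn rats, bought from a cell bank as frozen second-passage cells and studied on day 11 after a switch to 2% horse serum. The IL-8 group (n = 3 samples) was kept for that time with interleukin-8 (IL-8), a chemokine that draws neutrophils, made in bacteria and used at 1 ng/ml. The control group (n = 3 samples) was left untreated and shared the cells, the medium and the day. Total RNA was labelled with Cy3 and each sample was hybridised to 1 Agilent 1-colour array. Separate cultures are not named in the labels, and the spread between samples and every limma p may therefore measure technical variation only. The IL-8 arrays shared a slide that held no control array, and the reverse, so an effect of the slide and one of IL-8 cannot be told apart.

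As background, miR-22 is made from a host transcript that codes for no protein, and its 3p arm is abundant in striated muscle. In mice, miR-22-3p promotes growth of heart muscle cells, with the deacetylases Sirt1 and Hdac4 among its targets. Less is known of the 5p arm, which comes from the same hairpin and can differ in level when one arm is kept and the other degraded.

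The hairpin is printed to show where the arms lie, in capitals, and is the RefSeq sequence on build GRCr8, plus strand, chr10:60805331-60805425.
rno-mir-22 hairpin: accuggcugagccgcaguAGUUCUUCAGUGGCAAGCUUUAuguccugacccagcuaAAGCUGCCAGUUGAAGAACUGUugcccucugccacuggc
The 5p arm took bases 19 to 40 and the 3p arm bases 57 to 78 of its 95 bases, with a loop of 16 bases between them. In the fold predicted by RNAfold, 19 base pairs joined the arms and all 7 seed bases of each arm were paired. The mature sequences follow with the seed (bases 2 to 8) in capitals, since the seed sets which messages an arm can match.
rno-miR-22-3p: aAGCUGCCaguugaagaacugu
rno-miR-22-5p: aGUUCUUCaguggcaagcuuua
Among 693 rat mature miRNA names of RefSeq, which matched 651 of the 719 names on the array, 0 others shared the seed of either arm. The probes are DNA, complementary to the 3′ part of each arm, and are printed because the 3p pair differ by 1 base.
3p probe of 18 bases: acagttcttcaactggca
3p probe of 19 bases: acagttcttcaactggcag
5p probe of 18 bases: taaagcttgccactgaag
The shorter 3p probe pairs with bases 5 to 22 of its arm, the longer with bases 4 to 22, and the 5p probe with bases 5 to 22. The array annotation put the probes on rat build rn4 at chr10:62782784-62782800 (shorter 3p), chr10:62782783-62782800 (longer 3p) and chr10:62782746-62782762 (5p). Whether these positions lie in an exon or intron of the host transcript was not analysed here.

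With IL-8, miR-22-3p was slightly lower in relation to other miRNAs, miR-22-5p was not, and the ratio of 3p to 5p signal was lower on all 3 IL-8 arrays than on any control array. The size was small, about a 0.916-fold level for the 3p arm and a 0.890-fold arm ratio, and both separations were lost under some of the other processing settings given below. Levels are log2 of the spot signal over each array's 75th percentile, the percentile being taken over 264 probes that every array detected well above background. A level above 0 is therefore brighter than that percentile, and any change shared by all miRNAs is removed.

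The level of miR-22-3p was 3.05, 3.23 and 3.20 on the IL-8 arrays, against 3.26, 3.30 and 3.30 on the control arrays. The groups did not overlap, and IL-8 replicate 1 lay farthest below the control arrays. The IL-8 arrays averaged 3.16 ± 0.09 and the control arrays 3.29 ± 0.02 (SD, n = 3 each), a log2 difference of -0.13 with an SE of 0.06 from the limma fit. Without IL-8 replicate 1 the difference was -0.07, with quantile normalization -0.05 and with the percentile over all probes -0.22, the groups overlapping in both of these scalings. Over the 167 miRNAs tested, groups were apart in 50 (29.9%), higher with IL-8 in 27 (16.2%) and lower in 23 (13.8%). Because the arm was chosen from this contrast, nothing is read from its place among them.

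miR-22-5p had levels of -2.51, -2.50 and -2.43 on the IL-8 arrays, against -2.62, -2.46 and -2.49 on the control arrays. The groups overlapped, and control replicate 1 was the lowest of the 6. The means were -2.48 ± 0.05 with IL-8 and -2.52 ± 0.08 in control (SD, n = 3 each), a log2 difference of 0.04 with an SE of 0.06, or 1.03-fold. limma called 10 of 167 miRNAs (5.99%) at an adjusted p under 0.05, 5 of them higher with IL-8 (2.99%) and 5 lower (2.99%). An unadjusted p under 0.05 was found for 41 of 167 miRNAs (24.6%). Neither miR-22 arm was among the calls, which is no test of either, since both were chosen from this contrast.

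**Figure D1:**
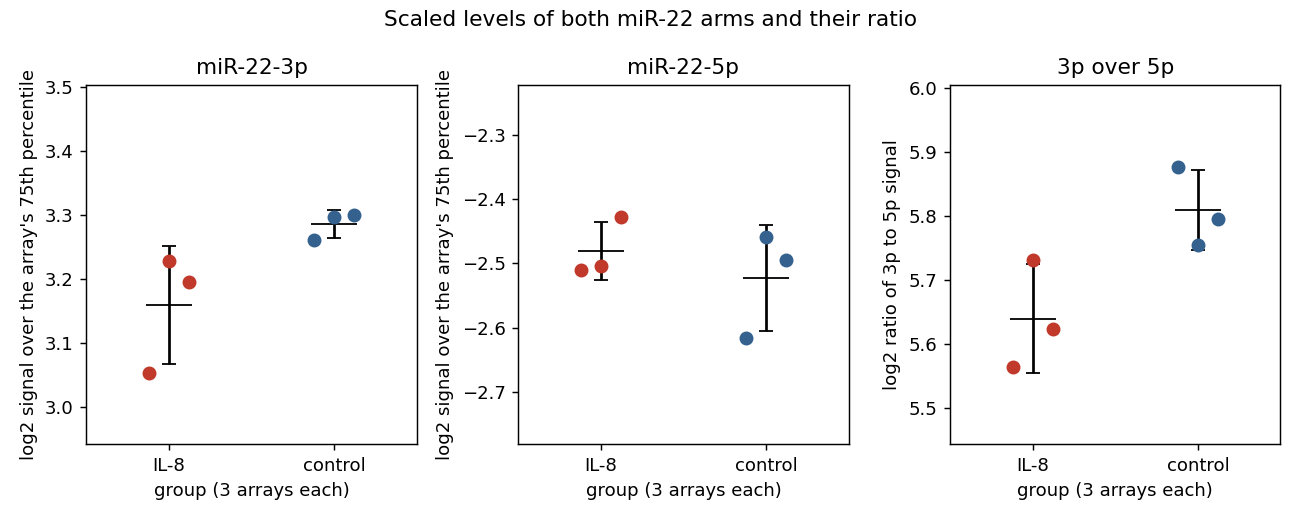
Log2 level of miR-22-3p (left), log2 level of miR-22-5p (middle) and log2 ratio of 3p to 5p signal (right) on each array, IL-8 left of control. Points are arrays, horizontal lines are means and bars are ± SD (n = 3 each); every vertical axis spans the same height but starts away from 0. The groups are apart for the 3p level (3.16 against 3.29) and for the ratio (5.64 against 5.81), and overlap for the 5p level.

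The IL-8 arrays were brighter as a whole, and the sign of the 3p difference turned with the scaling. The 75th percentile was 569, 549 and 540 signal units on the IL-8 arrays, against 440, 475 and 497 on the control arrays. The unscaled mean signal of miR-22-3p was 5054, 5489 and 5282 on the IL-8 arrays, against 4557, 5011 and 5240 on the control arrays. These unscaled groups overlapped, and their means were 5275 ± 217 with IL-8 and 4936 ± 348 in control (SD, n = 3 each). Without any scaling the log2 difference of miR-22-3p was 0.11, while the median over all tested miRNAs was 0.24, which leaves miR-22-3p at -0.13 relative to that median. Scaled to the spike-in RNAs, miR-22-3p was at 0.06 and the median over all tested miRNAs at 0.19. The arrays do not settle whether the amount of miR-22-3p per unit of RNA was lower with IL-8. Relative to the median of the tested miRNAs its signal was lower in these settings, by a size that moved with the processing. That relative difference was -0.06 with quantile normalization. It was -0.03 with normexp background correction, where miR-22-3p was at -0.10 and the median at -0.07. The arm was chosen from this contrast, so these values are a description.

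For miR-22-5p the unscaled signal was 99.8, 96.8 and 100.3 on the IL-8 arrays, against 71.8, 86.5 and 88.1 on the control arrays. All 3 IL-8 arrays lay above all control arrays before scaling, and the scaled groups overlapped. Without scaling, limma gave an unadjusted p under 0.05 for 92 of 167 miRNAs and called 51, of which 50 were higher with IL-8. How many miRNAs had groups apart before scaling was not counted, so nothing is read from the separation of miR-22-5p. Without scaling its log2 difference was 0.28, or 0.04 relative to the median over all tested miRNAs. The number of miRNAs well above background was 180, 169 and 168 on the IL-8 arrays, against 154, 156 and 164 on the control arrays, and the part of overall brightness in the miR-22 values was not tested beyond these settings.

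**Figure D2:**
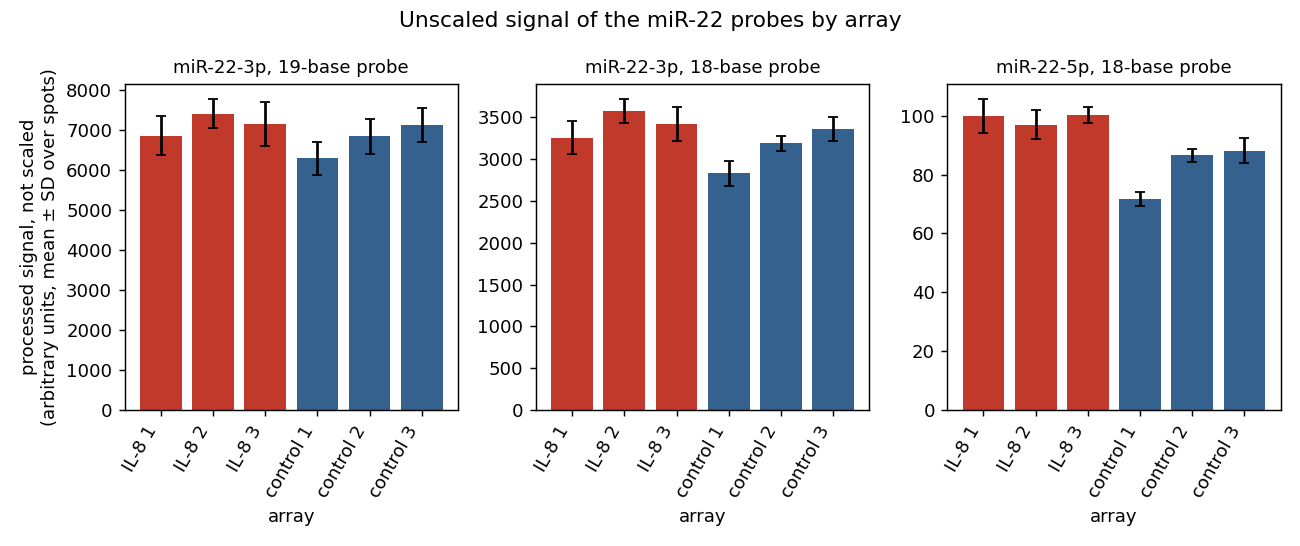
Unscaled signal of the 3 miR-22 probes on each array, in arbitrary units on axes that start at 0, with IL-8 arrays (red) left of control arrays (blue). Bars are means and lines ± SD over the spots of the probe, which are repeats on 1 array and not samples. The 3p probes lie between 2831 and 7399 and the 5p probe at or below 100.3. Before scaling the 5p signal is higher on every IL-8 array than on any control array. The median log2 difference over all tested miRNAs was 0.24 without scaling.

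miR-22-3p was among the brightest miRNAs in these cells. Its rank by signal among the 167 tested miRNAs was 5, 4 and 4 on the IL-8 arrays and 4 on each control array. It made up 5.52%, 5.94% and 5.78% of the summed signal of the tested miRNAs on the IL-8 arrays, against 6.43%, 6.20% and 5.96% on the control arrays. The share averaged 5.74 ± 0.21% with IL-8 and 6.19 ± 0.24% in control (SD, n = 3 each). Every IL-8 array was below every control array, the closest pair being IL-8 replicate 2 at 5.94% and control replicate 3 at 5.96%. The difference was -0.45 percentage points, and -0.22 with quantile normalization. How many miRNAs were apart in this share was not counted. Because the arm was chosen from this contrast, nothing is read from the separation. miR-22-5p ranked 72, 72 and 71 on the IL-8 arrays, against 74, 70 and 76 on the control arrays. Probes differ in brightness for the same amount of RNA, so ranks and shares order signals and not amounts.

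Above miR-22-3p on all 6 arrays stood miR-21-5p, an miRNA raised in fibrosis and in many growing cells, miR-143-3p, a smooth muscle and fibroblast miRNA, and miR-125b-5p, an miRNA of many tissues related to nematode lin-4. Their mean levels over the 6 arrays were 4.26, 3.75 and 3.40, next to 3.22 for miR-22-3p. Next below came miR-23a-3p at 3.15, miR-199a-3p at 2.94 and miR-24-3p at 2.81. miR-23a-3p, which restrains muscle atrophy genes in mice, lay below miR-22-3p on 5 of 6 arrays, so the order of this pair is within their spread, while miR-199a-3p and miR-24-3p lay below it on all 6. Of the 20 brightest miRNAs, 12 had a log2 difference below 0, their median was -0.02, and the values ran from -0.13 (miR-22-3p itself) to 0.13. Nothing is read from that place, since miR-22-3p was chosen from its level and this contrast.

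Around miR-22-5p the order was not fixed. Next above by mean level were miR-140-3p at -2.43, miR-342-3p at -2.46 and miR-322-5p at -2.49, against -2.50 for miR-22-5p, and they lay below it on 2, 1 and 4 of the 6 arrays. Next below were miR-143-5p at -2.54, miR-34c-5p at -2.55 and miR-652-3p at -2.56, which lay below it on 5, 3 and 4 arrays. No one of these neighbours kept the same side of miR-22-5p on all 6 arrays.

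**Figure D3:**
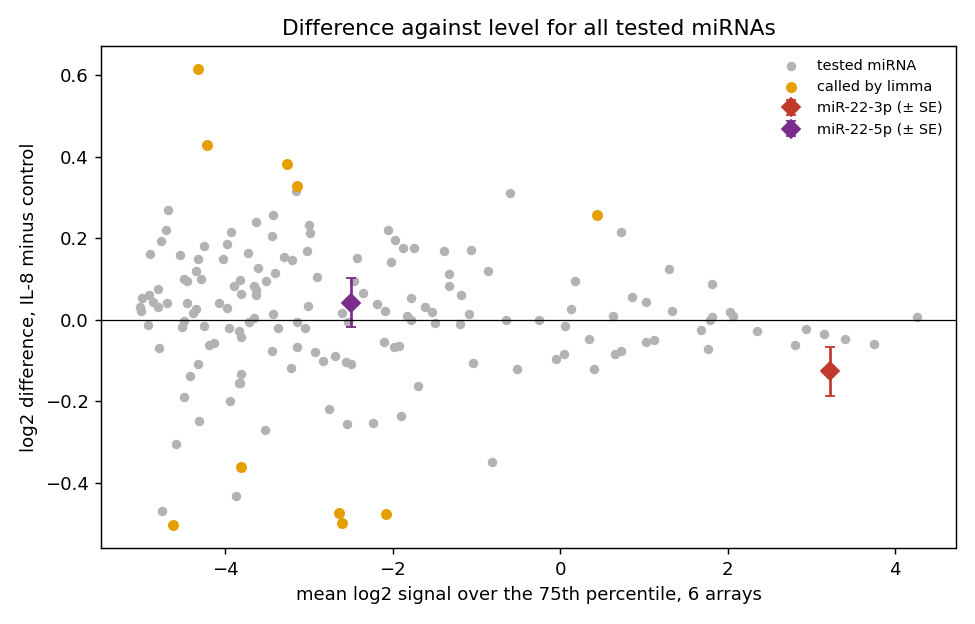
Log2 difference, IL-8 minus control (vertical axis), against the mean log2 level over the 6 arrays (horizontal axis) for the 167 tested miRNAs. Grey points were not called and orange points were called by limma; diamonds are miR-22-3p and miR-22-5p with ± SE. miR-22-3p lies at -0.13 and miR-22-5p at 0.04. Both were chosen from this contrast, so nothing is read from their places.

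The ratio of 3p to 5p signal compares both arms on the same array, so a scaling by 1 factor per array cancels. The ratio was 47.3, 53.1 and 49.3 on the IL-8 arrays, against 58.8, 54.0 and 55.5 on the control arrays. The groups did not overlap, although IL-8 replicate 2 and control replicate 2 lay close together. The mean ratio was 49.9 ± 2.95 with IL-8 and 56.1 ± 2.44 in control (SD, n = 3 each). On the log2 scale the means were 5.64 ± 0.08 with IL-8 and 5.81 ± 0.06 in control, a difference of -0.17 with an SE of 0.06. With quantile normalization and with normexp background correction, which are not 1 factor per array, the difference was -0.0651 and -0.0660 and the groups overlapped. The size of the ratio depends on the probes of each arm and is no ratio of molecules. Its change between arrays moved with the background correction as well. A ratio between the 3p probes of 1 RNA, given below, also shifted between the groups, though by less.

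The tested miRNAs held both arms of 19 precursors, matched by name, and groups did not overlap in the arm ratio of 5 of these 19 (26.3%). For miR-22 the ratio was lower with IL-8 (1 of 19, or 5.26%), and for the other 4 it was higher, namely miR-324, miR-140, miR-411 and miR-34a. Ordered by the log2 difference in the ratio, miR-22 stood second from the lowest. Just below it was miR-1839 at -0.19, whose groups overlapped, and just above it miR-21 at -0.11, whose groups overlapped too. The 19 differences ran from -0.19 to 0.19 with a median of 0.06 and a median size of 0.09, beside -0.17 for miR-22. In ratio size, whichever arm was brighter, miR-22 had rank 4 of 19, with a mean log2 ratio of 5.72, behind miR-21, miR-143 and miR-34a. With each ratio turned so that the brighter arm is on top, it was lower with IL-8 in 10 precursors and higher in 9, with a median of -0.03. Turned this way, groups were apart and lower with IL-8 in 3 of the 19, namely miR-22 (-0.17), miR-34a (-0.16) and miR-140 (-0.09). They were apart and higher for miR-324 (0.07) and miR-411 (0.11). Because miR-22 was chosen from this ratio, nothing is read from its place among the 19.

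**Figure D4:**
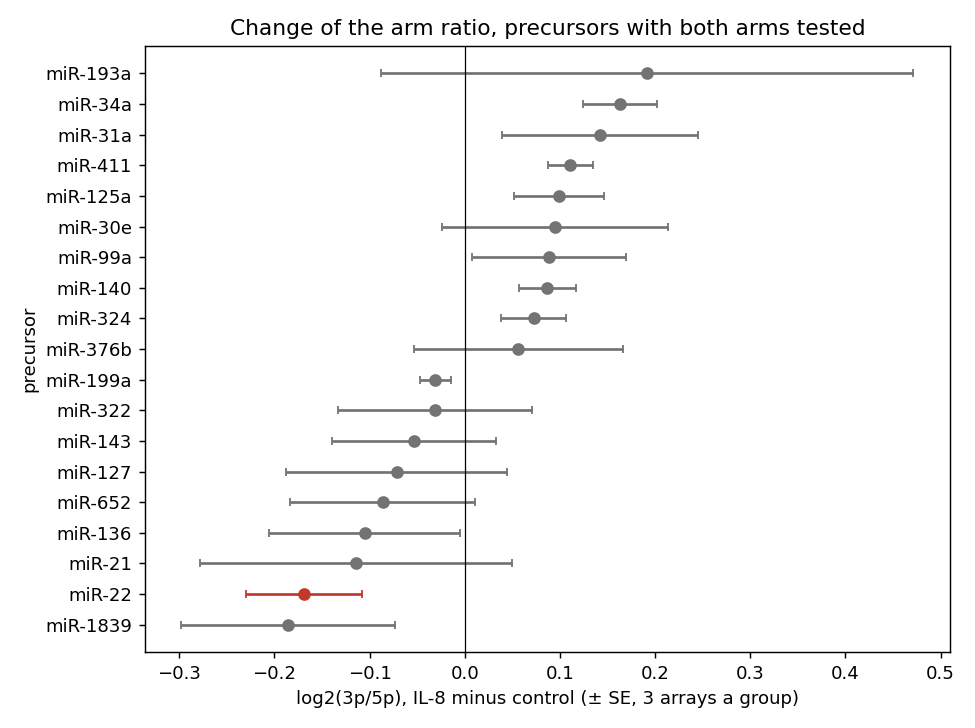
Log2 difference in the ratio of 3p to 5p signal, IL-8 minus control, for the 19 precursors with both arms tested, ordered from high (top) to low (bottom). Points are differences and bars are ± SE (3 arrays a group); miR-22 is in red. miR-22, at -0.17, lies next to the lowest, miR-1839, at -0.19, and 9 of the 19 differences are below 0. Nothing is read from the place of miR-22, which was chosen from this ratio.

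Both 3p probes had a lower mean level with IL-8, and the groups were apart for the longer probe only. The probe of 19 bases averaged 3.69 ± 0.09 on the IL-8 arrays and 3.84 ± 0.01 on the control arrays (SD, n = 3 each), a log2 difference of -0.15. The probe of 18 bases averaged 2.63 ± 0.10 with IL-8 and 2.73 ± 0.04 in control (SD, n = 3 each), a log2 difference of -0.10. Its level was 2.52, 2.70 and 2.67 on the IL-8 arrays, against 2.69, 2.75 and 2.76 on the control arrays, so IL-8 replicate 2 lay above control replicate 1. Over the 5p probe, the log2 ratio differed by -0.19 for the longer 3p probe and by -0.14 for the shorter. The ratios to the shorter probe overlapped narrowly, with IL-8 replicate 2 at 5.207 and control replicate 2 at 5.205. Both ratios share the single 5p probe, whose part in the difference was not tested.

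The pair of 3p probes also shows how much of a signal belongs to the probe. They read the same RNA, and the longer gave 2.10, 2.07 and 2.08 times the signal of the shorter on the IL-8 arrays, against 2.22, 2.14 and 2.12 times on the control arrays. The 1 added base thus went with a signal about 2.08-fold higher with IL-8 and 2.16-fold higher in control. This ratio within 1 arm was itself lower on every IL-8 array than on any control array. Its mean differed by 0.08 on a linear scale, which is not the log2 scale of the arm ratio. On the log2 scale the longer and shorter probe differed by -0.15 and -0.10 between the groups. Those values lie closer together than the -0.13 and 0.04 of the 3p and 5p arms. How often the probes of other miRNAs shift apart in this way was not counted.

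Spots of a probe agreed closely on each array. The coefficient of variation over the spots ran from 4.91% to 7.63% for the longer 3p probe, from 2.69% to 6.08% for the shorter and from 2.40% to 5.75% for the 5p probe. Each 3p probe had 10 spots per array and the 5p probe had 20. Of these spots, 0 of 60, 1 of 60 and 9 of 120 were left out as outliers by the software. All spots were well above background and 0 were saturated, with single spots between 5749 and 8037, between 2619 and 3790 and between 67.2 and 112 signal units, in the same order of probes. The pooled SD between arrays of a group was 0.07 for each arm, near the median of 0.08 over all tested miRNAs.

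The miRNAs whose pattern over the 6 arrays was most like that of miR-22-3p were found by the root mean square (RMS) difference of log2 levels, each centred on its own mean. They were miR-31a-5p (RMS 0.0367), miR-99b-5p (0.0411), miR-24-3p (0.0431), miR-27b-3p (0.0464) and miR-23b-3p (0.0490), beside a median RMS of 0.120 over the other 166 tested miRNAs. Their own log2 differences were -0.12, -0.10, -0.06, -0.08 and -0.07. The 5p arm of the same hairpin was at place 63 of 166 in this order, with an RMS of 0.104, below that median.

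For miR-22-5p the nearest were miR-365-3p (RMS 0.0249), miR-100-5p (0.0285), miR-103-3p (0.0303), miR-352 (0.0323) and miR-20b-5p (0.0353), beside a median of 0.0896. Their log2 differences lay between 0.00 and 0.07, and miR-22-3p stood at place 99 of 166. For each arm, many other miRNAs were thus closer than its partner. The RMS of 0.104 between the arms was below the median from the 3p side and above it from the 5p side. These patterns include the contrast from which the arms were chosen. All of these values share the same 6 libraries and scaling.

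Lists from general knowledge place miR-22-3p among miRNAs of related roles. They were chosen with earlier results of these data known, so their counts are a description. Of 25 miRNAs described in myoblast differentiation, 23 were on the array under the listed names and 14 were tested. Of these, 1 rose and 0 fell by limma, with 2 at an unadjusted p under 0.05, both higher with IL-8, beside 5.99% called and 24.6% at an unadjusted p under 0.05 over all 167 tested miRNAs. The median log2 difference was 0.00, and 0.02 without miR-22-3p, beside 0.02 over all 167. The member that rose was miR-181a-5p, which in mice is raised as myoblasts differentiate, with a log2 difference of 0.26 and an adjusted p of 0.0315 from limma. That call held in 12 of 21 alternatives, with an adjusted p from limma between 0.00182 and 0.998 and a positive difference in all 21; of the arrays left out singly, it held only without control replicate 3 (adjusted p 0.00904). It was followed by miR-181b-5p, which shares its seed family, at 0.18, and by miR-26a-5p, which represses the methyltransferase Ezh2 in mouse myoblasts, at 0.13, and neither passed the test.

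Of 16 miRNAs linked to heart muscle growth, 12 were tested, of which 0 rose and 1 fell by limma, with 2 at an unadjusted p under 0.05, both lower with IL-8, beside the same shares of 5.99% and 24.6% over all tested miRNAs. The median log2 difference was -0.05, and -0.03 without miR-22-3p, and 3 of the 12 were above 0; over all 167 the median was 0.02 and 73 were below 0. The member that fell was miR-132-3p, which with miR-212 promotes growth of mouse heart muscle cells. It averaged -3.99 ± 0.04 with IL-8 and -3.63 ± 0.10 in control (SD, n = 3 each), 0.779-fold, with a log2 difference of -0.36 and an adjusted p of 0.0218 from limma. That call held in 12 of 21 alternatives, with an adjusted p from limma between 0.00108 and 0.687 and a negative difference in all 21. It was lost without IL-8 replicate 1, 2 or 3 (adjusted p 0.103, 0.157 and 0.169) and without control replicate 2 (0.0523). Next by p was miR-222-3p, which restrains the cell-cycle inhibitor p27, at -0.16. miR-22-3p itself, chosen from this contrast, was at -0.13.

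miR-132 is also the nearest miRNA to miR-22 along the chromosome among those on the array, together with miR-212. On rn4 their probes lie from 302.0 to 302.3 kb from the miR-22-5p probe, and on GRCr8 Mir132 and Mir212 lie 283 and 284 kb from Mir22. The 3p arm of miR-212 had a log2 difference of 0.06 with overlapping groups, unlike the fall of miR-132-3p, and the 5p arms of both were not tested because neither was detected throughout a group. The 3 neighbouring precursors thus gave log2 differences of -0.13 for miR-22-3p, -0.36 for miR-132-3p and 0.06 for miR-212-3p, and the differences between them were not tested.

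The labelled cell type was set beside miRNA markers. Of 14 muscle-enriched arms (of miR-1, miR-133, miR-206, miR-208 and miR-499), 0 were well above background on any array, and the brightest of their probes reached 9.23 signal units. Their summed signal ran from -93.5 to 3.48 on the IL-8 arrays and from -104 to -70.4 on the control arrays. Of 10 fibroblast and smooth muscle arms, 8 were well above background, summing to between 57390 and 58636 with IL-8 and between 43425 and 58002 in control. For blood 0 of 7 on the array (8 listed), for endothelium 0 of 3 and for epithelium 0 of 7 were detected. miR-22-3p was therefore measured here in cells whose defining muscle miRNAs were not detected, and the part of cell makeup in its level was not tested. In bulk samples, fewer cells of a type and less RNA per cell cannot be told apart.

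**Figure D5:**
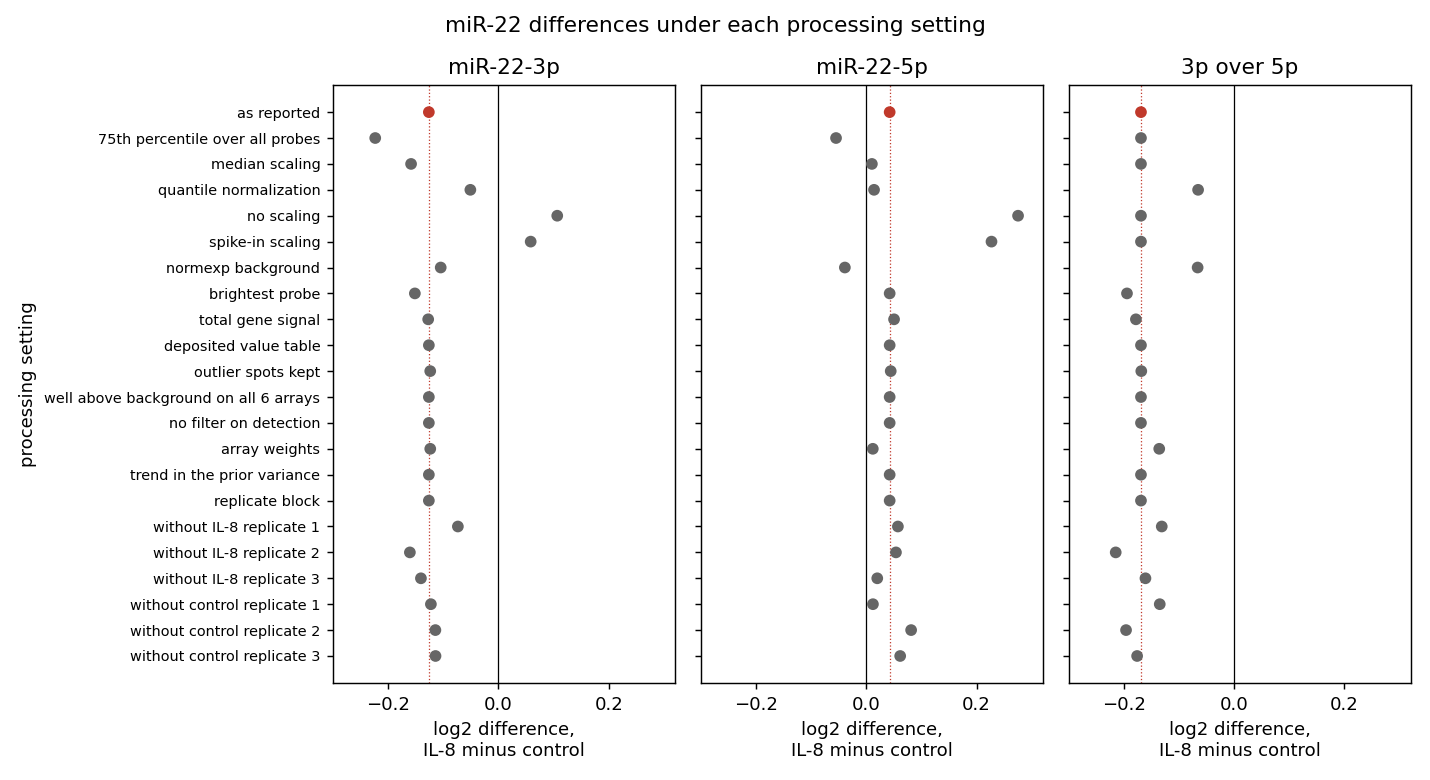
Log2 difference, IL-8 minus control, for miR-22-3p (left), miR-22-5p (middle) and the ratio of 3p to 5p (right) as reported (red) and under 21 other processing settings (grey), 1 setting per line. The 3p difference lies below 0 in 19 of the 21, and above 0 with no scaling (0.11) and with spike-in scaling (0.06); the ratio lies below 0 in all 21, from -0.21 to -0.07.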

How the data were processed

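The deposited spot intensities are on a linear scale, extracted per the file headers with Agilent Feature Extraction 10.10.1.1, background-subtracted and spatially detrended, with no normalization between arrays. The deposited set of values has a column per array, and 15095 of 15095 on each equalled the software's total probe signal (relative tolerance 1e-04), so it is linear, not centred and not normalized. Its column medians were 0.307, -0.802 and -1.18 for the IL-8 arrays and -0.529, -1.35 and -1.17 for the control arrays.

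Spots of a probe were averaged without software outliers, divided by the array's 75th percentile over 264 probes, set to at least a log2 level of -5.03, and log2 was taken. A probe was well above background where more than 50% of its spots were; a miRNA was tested (167; 552 left out) where at least 1 probe was so on all 3 arrays of a group, as the mean of those probes. IL-8 and control were compared by limma 3.58.1 (lmFit, eBayes) in R 4.3.3, Benjamini-Hochberg adjusted at 0.05, without covariates. On simulated data of 167 miRNAs for IL-8 against control, 95% of 20 changes of log2 1, 90% of 20 of log2 0.3 and 1.57% of 127 unchanged miRNAs were called. These rates hold for the simulated data and are not rates for these arrays, on which slide and group coincide. Correlations between arrays over the 167 miRNAs, which are not independent replicates, ran from 0.993 to 0.999. Arm ratios used the log2 values per array.

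Groups and replicate numbers came from the sample titles; in the labels, the text on cell growth mentions IL-8 for every sample, against the titles, which were followed. The members and the lists were chosen with earlier results of these data known; 1 list is not reported here. Named were both arms, the 3 miRNAs next above and below each in mean level, the 5 of smallest RMS difference, each called member and the 3 of smallest p in each list, seed sharers, and the precursors beside miR-22 in the change of the arm ratio; further precursors and the neighbours on the chromosome were chosen after their values were seen. Mature and hairpin sequences are from RefSeq (GRCr8), probes from the array annotation (rn4), and the fold from RNAfold 2.7.2; files were read with the R package data.table (1.17.8), and Python 3.11.15 and matplotlib 3.10.9 drew the plots. The number of arrays limits the precision. Alternatives covered the scaling (a percentile over every probe, the median, quantiles, spike-in RNAs or none), normexp background correction (offset 50), the probe summary, the detection filter, settings of limma, a block for the replicate number, and each array left out in turn.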

Additional observations from a re-analysis of the deposited data

How the results depend on the processing

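Under 21 alternatives the log2 difference of miR-22-3p was below 0 in 19 and above 0 in 2, and its groups were apart in 16. It was -0.22 with the percentile over all probes, -0.0509 with quantile normalization, -0.10 with normexp, 0.11 with no scaling and 0.0584 with spike-in scaling. miR-22-5p was at -0.0548, 0.28 and 0.23 with the percentile over all probes, no scaling and spike-in scaling, and at -0.0387 with normexp. No scaling, spike-in scaling, the percentile over all probes and normexp put the median of all tested miRNAs at 0.24, 0.19, -0.08 and -0.07. The arm ratio was below 0 in all 21, at -0.0651 with quantile normalization and -0.0660 with normexp, the only alternatives in which its groups overlapped. The share of summed signal differed by -0.45 percentage points, and by -0.22 with quantile normalization. Leaving out 1 array at a time gave -0.16 to -0.07 for miR-22-3p (nearest 0 without IL-8 replicate 1), 0.01 to 0.08 for miR-22-5p, -0.21 to -0.13 for the ratio and -0.57 to -0.33 for the share. limma called 0 miRNAs (9 at an unadjusted p under 0.05) with the percentile over all probes, 17 with quantile normalization (8 higher, 9 lower), 51 with no scaling (50 higher, 1 lower), 42 with spike-in scaling (39 higher, 3 lower), 24 with normexp (1 higher, 23 lower), 15 with median scaling (5 higher, 10 lower), 1 with no filter on detection and 28 with array weights, against 10 as reported (5 higher, 5 lower). Without 1 array it called 1 to 29: 3, 1 and 1 without IL-8 replicates 1, 2 and 3, and 7, 5 and 29 without control replicates 1, 2 and 3. Neither miR-22 arm was called in any of the 21. The causes of these shifts were not tested. Of the myoblast list it called 4 with no scaling, 4 with spike-in scaling, 2 with normexp, 2 with array weights and 0 with the percentile over all probes, with outlier spots kept, with no filter or with the replicate block. Of the heart list it called 2 with normexp and 0 with spike-in scaling, with the percentile over all probes, with no filter or with the replicate block. Without 1 array each list had 0 to 1 called. Same-numbered samples of the groups had correlations of their deviations of 0.29, 0.33 and 0.09, all positive. Differently numbered samples ran from -0.58 (IL-8 replicate 1 and control replicate 2) to 0.33 (IL-8 replicate 3 and control replicate 2). These values do not settle whether the numbers mark pairs, and they were not taken as pairs. With the replicate block 8 miRNAs were called and the arm ratio differed by -0.17.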
